A study of Homo sapiens with 24 samples.

Results

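The proteasome genes described here are the 46 symbols of the count table that name a subunit, an assembly factor, an activator or an inhibitor of the proteasome (PSMA, PSMB, PSMC, PSMD, PSME, PSMF and PSMG followed by a number) and that have a read in each of the 24 libraries. They are 46 of the 12058 genes with no zero count, out of 54583 genes in the table. Of the 48 symbols with such a name, PSMA8 had no read in 24 libraries and PSMB11 had none in 23, with 2 reads in all, and both were left out. The members comprise 7 alpha and 10 beta subunits of the 20S core, 6 ATPases and 11 non-ATPase subunits of the 19S regulatory particle, 7 assembly factors, and 5 activators and inhibitors.

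PANC-1, an established human line that grew out of a pancreatic duct carcinoma, was treated for 6 h with the vehicle DMSO, with CID661578 at 40 µM or with cercosporamide at 5 µM, both of which the study describes as acting on the kinase MNK2. Each treatment had 4 biological replicates, and each of the 12 plates gave a library of total cytosolic RNA and a library of RNA bound by more than 3 ribosomes (polysome-associated RNA). Reads assigned to genes lay between 9268041 and 12184749 in 23 libraries, while the polysome library of replicate 4 with cercosporamide had 1592459. The sample descriptions give RPMI as the medium and the paper gives DMEM.

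The proteasome is the protease that degrades proteins tagged with ubiquitin, and it supplies amino acids and peptides in every nucleated cell. In its 20S core, rings of alpha subunits gate a chamber formed by rings of beta subunits, 3 of which cleave proteins (PSMB5, PSMB6 and PSMB7). Immune cells and cells exposed to interferon replace these with PSMB8, PSMB9 and PSMB10. The ATPases of the 19S particle unfold substrates and open the gate, its non-ATPase subunits bind and remove ubiquitin, and dedicated chaperones put core and particle together. Subunits are held in fixed proportion in the finished complex, so the synthesis of each from its own mRNA is a recurring question in the field, and ribosome association is a readout for it.

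The cell labels were compared with markers of the cell types that a pancreatic sample could hold. Of 7 duct and epithelial markers, 6 were in the tested table and their summed level lay between 5413 and 22531 CPM (reads on a gene scaled to the normalised size of the library), with KRT8 the most abundant, while CDH1 had no read in 13 libraries. Both mesenchymal markers were present, at 784 to 2197 CPM, with VIM the most abundant. The 4 acinar markers summed to at most 1.36 CPM, with PRSS1 and AMY2A at 0, the 3 islet markers to at most 0.262 CPM, with INS and SST at 0, and the 3 endothelial markers to at most 0.772 CPM, with CDH5 at 0. Among 4 immune markers only CD68 was tested, the list summed to 307 to 858 CPM, and PTPRC and CD3E had no read.

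Levels of the proteasome mRNAs were compared per length of transcript in total RNA with DMSO. The median member lay at 109 CPM per kb, against 4.8 for the 11584 tested genes with a known length. By class the median was 418 for the beta subunits, 282 for the alpha subunits, 83.7 for the ATPases, 80.3 for the non-ATPases, 79.5 for activators and inhibitors, and 35.7 for the assembly factors. The 14 constitutive core subunits, which the core holds in equal number, ran from 64.8 CPM per kb for PSMA5 to 1501 for PSMB3, with a median of 477. Divided by the length of all annotated exons instead, the class medians were lower, at 226 for the beta subunits and 85.4 for the alpha subunits.

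PSMC4, the ATPase Rpt3, had the highest level of the 46 members in total RNA with DMSO. Its total RNA held 7719, 5144, 7051 and 7829 CPM in the 4 DMSO replicates and its polysome-associated RNA 9982, 5725, 10882 and 8717. That is 3954 ± 709 CPM per kb (SD, n = 4), which ranked 22 of 11584 genes. Per length, each of the 4 values exceeded every DMSO value of the other 5 ATPases, and the class as a whole spanned 201-fold per length, with PSMC1 (Rpt2) at the low end at 19.7 ± 7.72. Not divided by length, the means in total RNA with DMSO were 6936 CPM for PSMC4 and 86.3 for PSMC1. The reads of PSMC1 may be mixed with those of a pseudogene, as described below, so its level and this span are uncertain. PSMC4 alone took 0.671% ± 0.144 of all reads in total RNA with DMSO, of 2.02% ± 0.253 for the 46 members (SD, n = 4).

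PSMB3, the beta subunit with the highest level, lies in the ring without cleaving proteins. Total RNA held 1335, 963, 1125 and 1151 CPM with DMSO and polysome-associated RNA 2280, 1485, 1538 and 1429, and replicate 1 was the highest in both. Its level per length was 1501 ± 200 CPM per kb and ranked 95. Among the alpha subunits PSMA7 led per length, at 593 ± 47.7, and PSMA2 followed at 574 ± 334. PSMA2, the alpha subunit with the highest mean CPM over all libraries, held 766, 1516, 547 and 462 CPM with DMSO, and replicate 2 was far above the other 3. The levels of PSMA2 and PSMA7 did not differ beyond this spread.

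In the other classes PSMD13 (Rpn9, a lid subunit) had the highest mean CPM of the non-ATPases over all 24 libraries, and held 1031, 908, 727 and 881 CPM in total RNA with DMSO. PSMD8 (Rpn12) was above it there with 1219, 1016, 1082 and 1015 CPM, and also per length, at 713 ± 63 against 558 ± 78.7 CPM per kb. PSMD10, the chaperone gankyrin, had the highest mean CPM of the assembly factors over all 24 libraries, and held 132, 79.4, 156 and 147 CPM in total RNA with DMSO. Its mean there, 129 CPM, lay below those of PSMG3 (153) and PSMD9 (135). Per length PSMG3 led the class, at 107 against 87.5 CPM per kb for PSMD10. PSME2, a subunit of the PA28 activator, led its class with 328, 204, 232 and 325 CPM, whereas PSME4, the nuclear activator PA200, was the lowest member per length at 2.41 ± 0.836 CPM per kb. The 3 catalytic subunits lay at 859 ± 216 (PSMB6), 506 ± 84.9 (PSMB5) and 331 ± 100 CPM per kb (PSMB7), and the immunoproteasome subunits at 294 ± 14 (PSMB8), 147 ± 30.9 (PSMB9) and 111 ± 13.8 (PSMB10). The caspase-like PSMB6 was thus above its counterpart PSMB9, the trypsin-like PSMB7 above PSMB10, and the chymotrypsin-like PSMB5 above PSMB8, each by more than the SDs of the pair.

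The promoters of the members were read for letter patterns, since the factor NRF1 (NFE2L1), which raises proteasome genes when the protease is inhibited, binds antioxidant response elements. RefSeq promoter sequences on GRCh38.p14, from 250 bases before to 50 bases after the start, were matched by symbol for 40 of 46 members, and PSMA7, PSMB1, PSMB6, PSMB7, PSMD4 and PSMG3 had no entry. The core of that element, TGACNNNGC on either strand, was in 13 of the 40 (32.5%) and in 3702 of 27305 promoters of the table (13.6%). CCAAT on either strand, the motif of NF-Y, was in 18 (45%) and in 9747 (35.7%). By class TGACNNNGC was found in 4 of 6 assembly factors, 3 of 5 activators and inhibitors, 3 of 10 non-ATPases, 2 of 7 beta subunits, 1 of 6 ATPases and 0 of 6 alpha subunits. Median GC content of the window was 62.1% for the members and 58.3% for all promoters. A match is a description of letters and not a binding site. The sequences below belong to the members with the highest level of their class (PSMB3 on the plus strand at chr17:38752491-38752790, PSMC4 on the plus strand at chr19:39970915-39971214) and to members with a large change in ribosome association described further on (PSMD12 on the minus strand at chr17:67366528-67366827, PSMG4 on the plus strand at chr6:3258697-3258996). Capitals mark TGACNNNGC or its reverse complement, which starts 104 bases before the start of PSMB3, 165 before that of PSMD12 and 27 after that of PSMC4, and is missing from the window of PSMG4.
PSMB3: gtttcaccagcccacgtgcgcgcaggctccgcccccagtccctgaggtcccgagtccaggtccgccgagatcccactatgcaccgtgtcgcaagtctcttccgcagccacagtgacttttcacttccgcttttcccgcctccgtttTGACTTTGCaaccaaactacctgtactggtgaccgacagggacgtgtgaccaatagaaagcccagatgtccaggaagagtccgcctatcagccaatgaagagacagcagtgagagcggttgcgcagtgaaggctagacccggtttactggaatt
PSMC4: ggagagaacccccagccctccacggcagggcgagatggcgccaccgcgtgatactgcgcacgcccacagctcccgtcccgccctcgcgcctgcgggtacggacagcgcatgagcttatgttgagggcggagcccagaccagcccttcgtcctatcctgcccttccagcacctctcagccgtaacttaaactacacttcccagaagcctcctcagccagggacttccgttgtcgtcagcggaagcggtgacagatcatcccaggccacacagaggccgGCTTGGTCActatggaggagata
PSMD12: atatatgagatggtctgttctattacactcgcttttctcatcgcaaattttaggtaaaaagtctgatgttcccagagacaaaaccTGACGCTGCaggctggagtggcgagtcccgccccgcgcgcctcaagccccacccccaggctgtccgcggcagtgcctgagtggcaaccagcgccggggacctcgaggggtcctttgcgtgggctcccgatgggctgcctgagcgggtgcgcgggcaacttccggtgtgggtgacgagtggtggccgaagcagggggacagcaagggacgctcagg
PSMG4: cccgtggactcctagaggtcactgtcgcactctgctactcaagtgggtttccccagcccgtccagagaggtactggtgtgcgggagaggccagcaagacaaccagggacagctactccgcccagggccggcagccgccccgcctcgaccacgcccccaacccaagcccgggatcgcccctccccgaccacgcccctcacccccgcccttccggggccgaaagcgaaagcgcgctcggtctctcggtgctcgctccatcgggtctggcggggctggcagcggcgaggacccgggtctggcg

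The region of chromosome 19 that holds PSMC4 also holds PSMD8, and its genes were looked at after these levels were seen. From SPINT2 to PSMC4 (chr19:38244035-39981764, GRCh38) lay 37 tested genes with a median of 69.6 CPM per kb in total RNA with DMSO. Both edges were set at genes with a high level, so its contrast with other genes is partly fixed by that choice and is given as a description. The other 31 tested genes within 2 Mb of PSMC4 had a median of 8.79, the 737 tested genes of chromosome 19 one of 4.09, and all 11584 one of 4.8. Of the 37 genes, 18 lay above 97.1 CPM per kb, the 90th percentile of all tested genes, against 4 of the 31 and 104 of the 737. RPS16, a protein of the small ribosomal subunit, ranked 1 of all at 18065 ± 4320 CPM per kb, followed in the region by PSMC4 itself, EIF3K at 2470 ± 159 and MRPS12 at 1950 ± 164. AKT2, beyond PSMC4 and outside the region, lay at 29.2 ± 5.68. The number of gene copies was not measured.

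**Figure D1:**
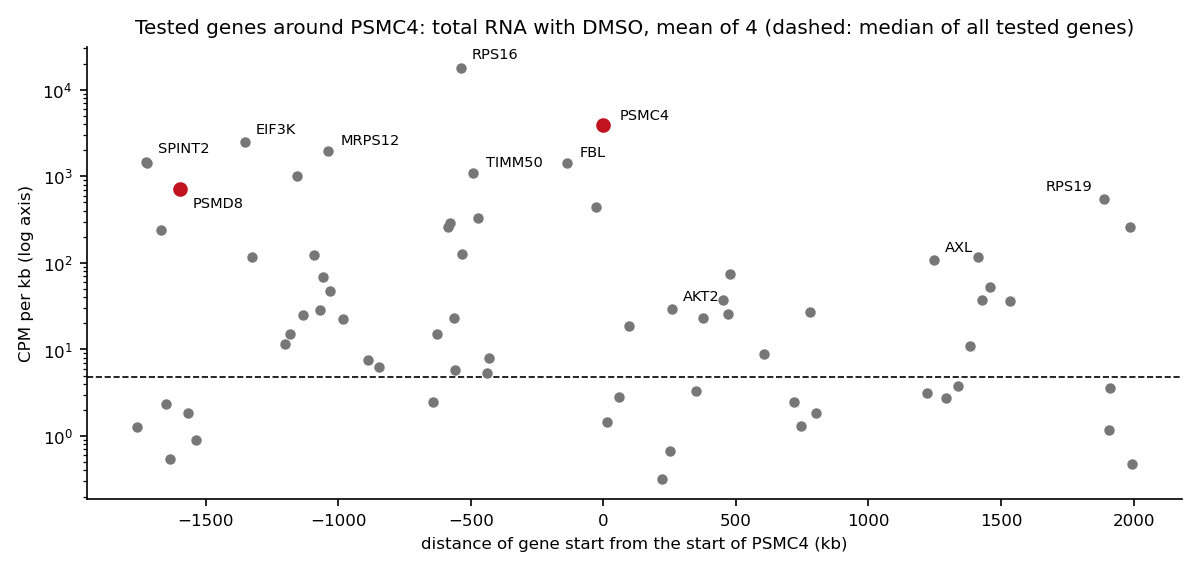
Tested genes within 2 Mb of PSMC4 by the distance of their start from the start of PSMC4 (kb) and their mean CPM per kb in total RNA of 4 DMSO replicates, on a log axis, with the median of all tested genes dashed (4.8). RPS16 stands highest at 18065, PSMC4 at 3954 and PSMD8 at 713.

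Reads that fit several places were counted at each place without regard to strand, so the counts of genes with processed copies or overlapping neighbours are uncertain. The table holds 48 pseudogenes of the members, of which 10 had no read, 15 had reads in every library and 2 stood out by their share of the reads of their parent. PSMC1P1 had the highest share, with 691 to 3555 reads per library against 385 to 2433 for PSMC1 and a median of 146% of its parent. Every value of PSMC1, above and below, may therefore include reads of this copy, or the reverse. PSMC6P1 had 15.3% of the reads of PSMC6.

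Ribosome association without a compound was read from the ratio of polysome CPM to total CPM on the same plate. With DMSO, mRNAs of several 19S subunits and of PA200 took a larger share of polysome-associated than of total RNA, and those of the core chaperones PSMG2, PSMG3 and PSMG4 a smaller one. PSMD2 (Rpn1, the docking subunit for ubiquitin carriers) held 254, 147, 258 and 276 CPM in total RNA and 813, 503, 671 and 694 in polysome-associated RNA. Its ratio was 3.2, 3.42, 2.6 and 2.52 on the 4 DMSO plates, 2.92, 3.02, 2.59 and 2.45 with CID661578 and 2.37, 3.18, 2.96 and 3.33 with cercosporamide. All 12 ratios lay above 2 and the treatments overlapped. The enrichment with DMSO was 2.91-fold (log2 1.54 ± 0.17, adjusted p 8.97e-08, higher in 4 of 4 replicates), where ± gives the SE of the log2 value here and in all tests that follow. PSME4 held 22.5, 22.6, 14 and 10.7 CPM in total and 57.8, 45.5, 39.4 and 50.7 in polysome-associated RNA, which do not overlap, and was 2.88-fold enriched (log2 1.53 ± 0.19, adjusted p 6.53e-07, higher in 4 of 4 replicates). PSMD4 (Rpn10), a receptor for ubiquitin chains, held 333, 287, 449 and 508 CPM in total and 988, 630, 933 and 769 in polysome-associated RNA, again without overlap. Its enrichment was 2.13-fold (log2 1.09 ± 0.19, adjusted p 6.32e-05, higher in 4 of 4 replicates).

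At the other end stood PSMG3 and PSMG4, which form a heterodimer that helps to build the alpha ring, and the immunoproteasome subunit PSMB10. PSMG4 held 20.2, 24.2, 17.9 and 23.3 CPM in total RNA with DMSO and 7.17, 9.61, 5.22 and 6.69 in polysome-associated RNA, and PSMG3 held 165, 190, 139 and 118 CPM in total and 52.8, 69.5, 41.4 and 46.7 in polysome-associated RNA. No polysome value of either gene reached a total value. PSMG4 was depleted 3.03-fold (log2 −1.60 ± 0.22, adjusted p 3.17e-06, lower in 4 of 4 replicates) and PSMG3 2.92-fold (log2 −1.54 ± 0.17, adjusted p 1.41e-07, lower in 4 of 4 replicates). PSMB10 held 128, 107, 96.2 and 103 CPM in total RNA and 38.3, 49.3, 43.2 and 43.4 in polysome-associated RNA, also without overlap. It was depleted 2.49-fold (log2 −1.31 ± 0.17, adjusted p 9.78e-07, lower in 4 of 4 replicates), whereas its counterpart in the constitutive core, PSMB7, was enriched (log2 0.33 ± 0.18, adjusted p 0.144, higher in 4 of 4 replicates). The call of PSMB7 held in 9 of 14 other settings and not without the replicate block (adjusted p 0.219). The difference between these 2 genes was not tested.

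Across the 46 members, 13 were enriched in polysomes with DMSO and 6 depleted (28.3% and 13.0%), called where the adjusted p was under 0.15 and the size over 1.2-fold, against 26.4% and 29.6% of the 12058 genes tested. The median log2 ratio was 0.01 for the members and −0.01 for all genes. When the fractions were scaled separately, the median of all genes moved to 0.26, and 22 members were then enriched and 4 depleted, beside 4728 and 2459 of all 12058 genes. The 6 ATPases had a median of 0.43, with PSMC2, PSMC3 and PSMC5 enriched, and all 6 lay above zero under both scalings. The 11 non-ATPases had a median of 0.18, with PSMD2, PSMD3, PSMD4 and PSMD13 enriched and 0 depleted, by edgeR, by DESeq2 and at an unadjusted p below 0.05. PSMD13 was enriched with log2 0.66 ± 0.18, adjusted p 0.00478, higher in 4 of 4 replicates. The medians of the alpha (−0.09) and beta subunits (−0.03, but 0.01 with DESeq2 size factors), of the assembly factors (−0.21) and of the activators and inhibitors (−0.10) all turned positive with separate scaling, at 0.18, 0.25, 0.06 and 0.18. With DESeq2 size factors the median of all genes also turned positive, at 0.02. Among the beta subunits PSMB3 was enriched (log2 0.54 ± 0.20, adjusted p 0.0299, higher in 4 of 4 replicates), as were PSMB5 (log2 0.37 ± 0.18, adjusted p 0.0949, higher in 4 of 4 replicates) and PSMB7, and PSMB2 and PSMB10 were depleted. PSMA5 was the enriched alpha subunit, PSMD10 (log2 0.45 ± 0.18, adjusted p 0.0456, higher in 3 of 4 replicates) the enriched assembly factor, PSMG2 a further depleted chaperone and PSMF1, the inhibitor PI31, the depleted member of its class. Of the depletions, that of PSMF1 was called in 1 and that of PSMB2 in 3 of 14 other settings, and DESeq2 called neither. Without plate terms and replicate block, 8 members were enriched, beside 2274 of all genes.

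With cercosporamide 33 of the 46 members had no called TE change, and the 13 others were called in both directions. The TE change, the change in polysome-associated RNA relative to total RNA of the same plates, was tested to ask which mRNAs gain or lose ribosomes beyond the change in their amount. It was called higher for 8 of the 17 subunits of the 19S particle and for PSMA4, and lower for PSMG3, PSMG4, PSMA7 and PSMB8. Of the 46 members, edgeR called 9 higher and 4 lower (19.6% and 8.7%), against 15.8% and 12.6% of all genes tested, and DESeq2 called 8 and 4. The median TE change was 0.0178 for the members and −0.000503 for all genes. With DESeq2 size factors these medians were −0.05 and −0.07, and with the GC trend removed −0.03 and −0.002. With a replicate or the plate of replicate 4 with cercosporamide left out, the median of the members ran from −0.08 to 0.16. With no spike-in listed, every change is relative to the other RNAs, and in these bulk samples fewer cells and less RNA per cell cannot be told apart.

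**Figure D2:**
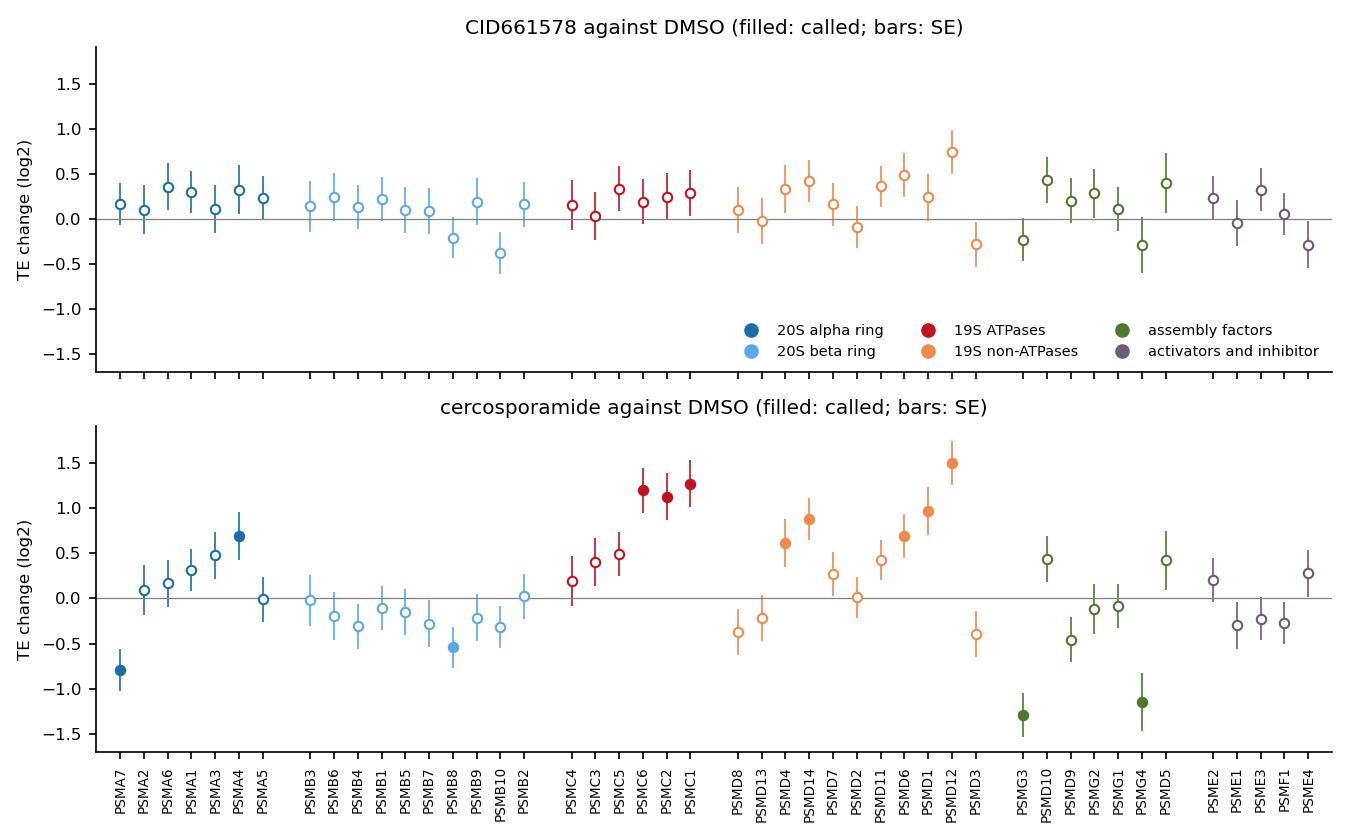
TE change (log2) of each member with each compound against DMSO, by class, from 4 replicates per treatment, with filled points for called members and bars for the SE. With cercosporamide the 6 ATPases all lie above zero and 9 of the 10 beta subunits below it, of which PSMB8 alone is called, and with CID661578 no member is called.

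PSMD12, the scaffold subunit Rpn5 of the lid, had the largest TE rise of the members. Total RNA held 70.3, 66.2, 123 and 104 CPM with DMSO and 60.8, 44.5, 96.8 and 108 with cercosporamide, and polysome-associated RNA 89, 48.4, 99.5 and 92.6 with DMSO and 187, 109, 220 and 268 with cercosporamide. The ratio of polysome to total was 1.27, 0.731, 0.807 and 0.889 with DMSO, 1.39, 1.07, 1.62 and 2.17 with CID661578 and 3.07, 2.44, 2.28 and 2.48 with cercosporamide. All 4 cercosporamide ratios exceeded all 8 others, while those with DMSO and CID661578 overlapped. The TE change was 2.83-fold (log2 1.5 ± 0.24, adjusted p 0.000297, higher in 4 of 4 replicates), and its log2 value was 0.81 with the GC trend of each library removed (adjusted p 0.00756).

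Among the ATPases, PSMC1, PSMC6 and PSMC2 rose. The ratio of PSMC6 (Rpt4) was 1.64, 0.401, 1.03 and 1.57 with DMSO and 2.66, 1.76, 2.32 and 2.67 with cercosporamide, and the highest DMSO value lay just below the lowest with cercosporamide, that of replicate 2. Its TE change was 2.29-fold (log2 1.2 ± 0.25, adjusted p 0.00251, higher in 4 of 4 replicates). PSMC2 (Rpt1) had ratios of 1.61, 1.53, 1.56 and 1.28 with DMSO and 3.19, 3.18, 2.06 and 5.37 with cercosporamide, which did not overlap either. It rose 2.18-fold (log2 1.13 ± 0.26, adjusted p 0.0051, higher in 4 of 4 replicates). For PSMC1 the ratios were 1.37, 1.32, 1.21 and 1.06 with DMSO and 2.66, 3.58, 1.74 and 4.8 with cercosporamide. Replicate 4, whose polysome library has the fewest reads, was the highest of the cercosporamide group for PSMC1 and PSMC2. The TE change of PSMC1 was 2.41-fold (log2 1.27 ± 0.26, adjusted p 0.00189, higher in 4 of 4 replicates), and the pseudogene PSMC1P1 was close to it, with ratios of 1.42, 1.23, 1.19 and 1.11 with DMSO and 2.53, 3.11, 1.74 and 5.73 with cercosporamide (log2 1.27 ± 0.27, adjusted p 0.0022, higher in 4 of 4 replicates). The 6 ATPases had a median TE change of 0.81, and each was above zero under every setting tried, with a lowest median of 0.52 without replicate 4. The abundant PSMC4 had log2 0.20 ± 0.28, adjusted p 0.684, higher in 2 of 4 replicates, below the other 5. With the GC trend of each library removed, PSMC6 (log2 0.47, adjusted p 0.176) and PSMC2 (log2 0.50, adjusted p 0.17) were no longer called, while PSMC1 was (log2 1.41, adjusted p 8.53e-05) and PSMC3 and PSMC5 were called in addition.

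The 11 non-ATPases had a median TE change of 0.43, with 8 above zero. The test called 5 higher (4 by DESeq2), and 0 lower by edgeR, by DESeq2 and at an unadjusted p below 0.05. Beside PSMD12 these were PSMD1, PSMD14, PSMD6 and PSMD4, named after their values were seen. PSMD1 (Rpn2) had ratios of 1.17, 0.945, 1.13 and 1.21 with DMSO and 2.48, 2.89, 1.43 and 2.15 with cercosporamide, without overlap (log2 0.97 ± 0.26, adjusted p 0.0141, higher in 4 of 4 replicates). PSMD14 (Rpn11), the enzyme that strips ubiquitin from substrates, had 1.34, 0.779, 0.907 and 0.933 with DMSO and 1.86, 2.06, 1.44 and 1.84 with cercosporamide, and its groups did not overlap either (log2 0.88 ± 0.23, adjusted p 0.0126, higher in 4 of 4 replicates, with log2 0.49 and adjusted p 0.123 once the GC trend was removed). The lid subunit PSMD6 (Rpn7) had 1.38, 1.04, 1.12 and 1.02 with DMSO and 1.96, 2.17, 1.27 and 2.12 with cercosporamide, and here the ratio of replicate 1 with DMSO exceeded that of replicate 3 with cercosporamide (log2 0.70 ± 0.24, adjusted p 0.0515, higher in 4 of 4 replicates). PSMD4 had 2.97, 2.19, 2.08 and 1.51 with DMSO and 2.44, 3.35, 2.94 and 4.66 with cercosporamide, which overlap (log2 0.61 ± 0.27, adjusted p 0.119, higher in 3 of 4 replicates). Without the plate of replicate 4 with cercosporamide, PSMD4 was not called (log2 0.38, adjusted p 0.372).

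Of the falls in TE, that of PSMG3 was the largest among the members. Total RNA held 165, 190, 139 and 118 CPM with DMSO and 242, 258, 207 and 206 with cercosporamide, and polysome-associated RNA 52.8, 69.5, 41.4 and 46.7 with DMSO and 27.2, 39.3, 32.7 and 29.8 with cercosporamide. Total values were higher and polysome values lower with cercosporamide, without overlap in either fraction. The ratio was 0.32, 0.365, 0.299 and 0.395 with DMSO, 0.358, 0.358, 0.253 and 0.227 with CID661578 and 0.113, 0.153, 0.158 and 0.144 with cercosporamide, which is a 2.44-fold fall (log2 −1.29 ± 0.24, adjusted p 0.00106, lower in 4 of 4 replicates). Its partner PSMG4 had ratios of 0.354, 0.397, 0.293 and 0.287 with DMSO, 0.299, 0.268, 0.197 and 0.336 with CID661578 and 0.157, 0.126, 0.168 and 0.144 with cercosporamide. All 4 cercosporamide ratios lay below the 8 others, and the fall was 2.22-fold (log2 −1.15 ± 0.32, adjusted p 0.017, lower in 4 of 4 replicates). The ratio of replicate 4 with cercosporamide rests on 8 reads of PSMG4 in the polysome library, and without that plate the fall was still called (log2 −1.12, adjusted p 0.0339). PSMG3 and PSMG4 were thus depleted in polysomes with DMSO and more so with cercosporamide. The 7 assembly factors together had a median of −0.11, with 2 above zero.

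In the core, PSMA7 fell and PSMA4 rose. PSMA7, the alpha4 subunit, held 588, 503, 585 and 606 CPM in total RNA with DMSO and 726, 549, 596 and 670 with cercosporamide, against 540, 553, 467 and 462 with DMSO and 282, 322, 316 and 383 with cercosporamide in polysome-associated RNA. The total values overlapped and the polysome values did not. The ratio fell from 0.895 ± 0.152 to 0.52 ± 0.0904 (SD, n = 4), a TE change of log2 −0.79 ± 0.23 that was lower in 4 of 4 replicates (adjusted p 0.0227). PSMA4, the alpha3 subunit, rose (log2 0.69 ± 0.27, adjusted p 0.0784, higher in 3 of 4 replicates), but it was not called without the replicate block (adjusted p 0.191) or with the GC trend removed (log2 0.27, adjusted p 0.519). With that trend removed, PSMA5 and the assembly factor PSMG2 were called lower in addition. The 7 alpha subunits had a median of 0.17 with 5 above zero, which became −0.14 with 1 above zero once the GC trend was removed and −0.06 without replicate 2.

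The beta subunits had small and mostly negative TE changes. Their median TE change was −0.20 with 1 of 10 above zero, and it turned to 0.01 with the GC trend removed, to 0.03 without replicate 1 and to 0.20 in an analysis of partial variance. By edgeR and DESeq2 0 were higher, as at an unadjusted p below 0.05, and 1 was lower. This was PSMB8, the inducible chymotrypsin-like subunit, with ratios of 0.882, 0.979, 0.947 and 0.914 with DMSO, 0.85, 0.768, 0.798 and 0.812 with CID661578 and 0.467, 0.794, 0.683 and 0.664 with cercosporamide. DMSO and cercosporamide did not overlap, and the ratios with CID661578 lay largely between them. The TE change was log2 −0.54 ± 0.23, adjusted p 0.108, lower in 4 of 4 replicates, and it was called in 7 of 16 other settings. The catalytic subunits PSMB5 (log2 −0.15 ± 0.25, adjusted p 0.74, lower in 2 of 4 replicates), PSMB6 (log2 −0.20 ± 0.27, adjusted p 0.667, lower in 2) and PSMB7 (log2 −0.28 ± 0.26, adjusted p 0.499, lower in 2) were not called. The other immunoproteasome subunits, PSMB9 (log2 −0.21 ± 0.26, adjusted p 0.625, lower in 3 of 4 replicates) and PSMB10 (log2 −0.32 ± 0.23, adjusted p 0.386, lower in 3 of 4 replicates), were not called either. The 5 activators and inhibitors had a median of −0.22 with 0 called by edgeR or DESeq2, and 0 at an unadjusted p below 0.05.

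**Figure D3:**
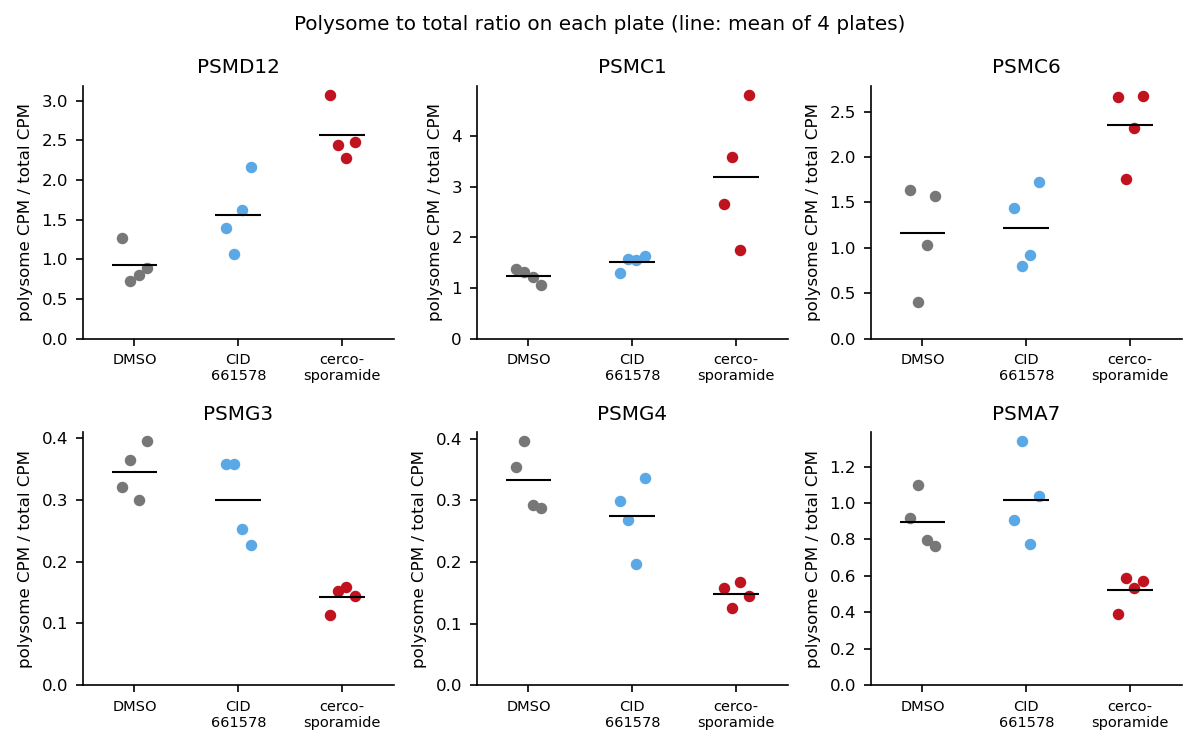
Ratio of polysome CPM to total CPM on each of the 12 plates for members with a large TE change, with a line at the mean of 4 plates per treatment. PSMD12 has cercosporamide ratios from 2.28 to 3.07, above those of the other treatments, and PSMG3 has ratios from 0.113 to 0.158, below them.

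Of the 13 TE calls with cercosporamide, PSMD12, PSMA7 and PSMG3 were called in all 16 other settings, PSMC1, PSMC6, PSMD1 and PSMD14 in 15, PSMC2 and PSMG4 in 14, PSMA4 and PSMD6 in 10, PSMB8 in 7 and PSMD4 in 5. Without replicate 2, the members called lower were 2, PSMG3 and PSMA7, and without plate terms and replicate block those called higher were 2. With plate terms but no replicate block, 8 were higher and 4 lower.

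Polysome-associated RNA taken alone showed which members gained or lost in the polysome pool. With cercosporamide, 14 of 46 members rose and 4 fell (30.4% and 8.7%) at an adjusted p below 0.15, against 17.1% and 16% of all genes, and DESeq2 called 15 and 4. The median was 0.24 for the members and −0.05 for all genes. The ATPases led with 4 of 6 called higher and a median of 0.76. PSMC6 held 164, 97.1, 78 and 108 CPM with DMSO and 268, 256, 331 and 408 with cercosporamide, without overlap. It rose 2.84-fold (log2 1.51 ± 0.21, adjusted p 4.62e-05, higher in 4 of 4 replicates), with PSMD12 next (log2 1.19 ± 0.17, adjusted p 6.83e-05, higher in 4 of 4 replicates). PSMC1 held 121, 54.8, 111 and 132 with DMSO and 199, 154, 214 and 380 CPM with cercosporamide, also without overlap (log2 1.15 ± 0.19, adjusted p 0.000212, higher in 4 of 4 replicates). PSMA4 held 710, 430, 498 and 431 with DMSO and 866, 780, 1377 and 1481 with cercosporamide (log2 1.08 ± 0.21, adjusted p 0.00141, higher in 4 of 4 replicates), with all cercosporamide values above all DMSO values. With the GC trend removed the log2 values were 0.92 for PSMC6 and 0.67 for PSMD12, both still called.

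The members that fell in polysome-associated RNA were PSMG3 (log2 −0.74 ± 0.18, adjusted p 0.00676, lower in 4 of 4 replicates), PSMA7 (log2 −0.68 ± 0.17, adjusted p 0.00872, lower in 4 of 4 replicates), PSMG4 (log2 −0.63 ± 0.26, adjusted p 0.0932, lower in 4 of 4 replicates) and PSMD3, the lid subunit Rpn3. PSMD3 held 98.6, 76.2, 83.2 and 84.2 CPM with DMSO and 73.3, 73.6, 65.9 and 49.7 with cercosporamide, without overlap (log2 −0.41 ± 0.17, adjusted p 0.105, lower in 4 of 4 replicates). All 9 members with a higher TE were also higher in polysome-associated RNA, as 3 of the 4 with a lower TE were lower. Both tests use the same polysome libraries, so this overlap is partly fixed by construction and is not a separate observation. PSMA2, PSMA3, PSMC3, PSMD5 and PSME4 rose there without a TE call. In 13 other settings PSMA3 was called 12 times, PSMC3 8 times, PSMD5 and PSME4 7 times and PSMA2 6 times, and with the GC trend removed only PSMC3 of these 5 was. None of the 10 beta subunits was called in polysome-associated RNA by edgeR or DESeq2, and 0 had an unadjusted p below 0.05, but PSMB5, PSMB7 and PSMB10 were called with the GC trend removed and PSMB3 and PSMB5 without replicate 1. Without the replicate block 7 members were higher and 2 lower, without replicate 2 the count of higher members was 9, and without replicate 1 that of lower members was 2. Without the plate of replicate 4 with cercosporamide, PSMD3 (log2 −0.25, adjusted p 0.374) and PSMG4 (log2 −0.59, adjusted p 0.153) were not called. Of 13 other settings, 3 called PSMD3 lower and 4 called PSMG4 lower.

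Total RNA gave no called member with cercosporamide. The counts were 0 higher and 0 lower by edgeR, against 0.0498% and 0.0332% of all genes, with 6 higher and 0 lower at an unadjusted p below 0.05. DESeq2 called 3 higher, PSMB8, PSMB10 and PSMB7, where it called 268 of all 12058 genes higher. With the GC trend removed edgeR called 5, those 3 with PSMA4 and PSMA2, where it called 577 of all genes higher. The median was 0.12 for the members and −0.05 for all genes, and the 10 beta subunits were all above zero with a median of 0.26. PSMB10 had the largest positive value, with 128, 107, 96.2 and 103 CPM with DMSO and 218, 171, 128 and 164 with cercosporamide. The highest DMSO and the lowest cercosporamide value were close to equal (log2 0.59 ± 0.19, adjusted p 0.291, higher in 4 of 4 replicates). PSMB8 held 329, 341, 341 and 308 CPM with DMSO and 528, 460, 428 and 499 with cercosporamide in total RNA, without overlap (log2 0.50 ± 0.18, adjusted p 0.335, higher in 4 of 4 replicates). In polysome-associated RNA PSMB8 held 291, 334, 323 and 281 with DMSO and 246, 365, 292 and 331 with cercosporamide, which overlap. PSMB9, the remaining immunoproteasome subunit, held 124, 124, 163 and 188 CPM with DMSO and 156, 158, 206 and 230 with cercosporamide (log2 0.28 ± 0.19, adjusted p 0.611, higher in 4 of 4 replicates). PSMD1 had the largest negative value (log2 −0.43 ± 0.25, adjusted p 0.543, lower in 3 of 4 replicates), with 99.3, 77, 70.3 and 159 CPM with DMSO and 89.6, 51.1, 75.2 and 89.3 with cercosporamide, groups that overlap.

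With CID661578 no proteasome mRNA had a called TE change. By edgeR 0 of 46 members were higher and 0 lower, against 0.00829% and 0.199% of all genes, DESeq2 called 0 and 0, and at an unadjusted p below 0.05 the counts were 1 and 0. The median was 0.18 for the members and 0.03 for all genes, and 37 of 46 values were above zero (32 in an analysis of partial variance, and 32 without replicate 2 or without replicate 4), beside 6375 of all 12058 genes. By class the medians were 0.24 for the non-ATPases, 0.23 for the alpha subunits, 0.22 for the ATPases, 0.20 for the assembly factors (−0.01 without replicate 2), 0.14 for the beta subunits and 0.06 for activators and inhibitors (−0.10 without replicate 1). PSMD12 again had the largest value (log2 0.75 ± 0.24, adjusted p 0.487, higher in 4 of 4 replicates), and it was called when replicate 1 was left out. PSMB10 had the most negative value, with ratios of 0.3, 0.46, 0.449 and 0.42 with DMSO and 0.297, 0.282, 0.311 and 0.349 with CID661578. Replicate 1 with DMSO lay within the CID661578 range and the other 3 above it (log2 −0.38 ± 0.23, adjusted p 0.642, lower in 4 of 4 replicates).

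In polysome-associated RNA with CID661578, PSMA4 and PSMD12 rose. PSMA4 held 710, 430, 498 and 431 CPM with DMSO and 911, 631, 714 and 861 with CID661578, with replicate 1 of DMSO and replicate 2 of CID661578 in the range of the other group (log2 0.59 ± 0.21, adjusted p 0.121, higher in 4 of 4 replicates). PSMD12 held 89, 48.4, 99.5 and 92.6 CPM with DMSO and 124, 62.1, 116 and 169 with CID661578 (log2 0.48 ± 0.17, adjusted p 0.113, higher in 4 of 4 replicates), and its groups overlapped. These were 2 higher and 0 lower of 46 members by edgeR, against 6.34% and 3.93% of all genes, with 4 and 0 at an unadjusted p below 0.05, and DESeq2 called 3 and 0, adding PSMC6 (log2 0.52 ± 0.20). Neither PSMA4 nor PSMD12 was called when any 1 of the 4 replicates was left out or without the replicate block. With the GC trend removed neither was called, and the log2 values were 0.10 for PSMD12 (adjusted p 0.86) and 0.43 for PSMA4 (adjusted p 0.386). The most negative value was that of PSMD3 (log2 −0.35 ± 0.17, adjusted p 0.27, lower in 4 of 4 replicates).

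Total RNA with CID661578 had 0 members higher and 0 lower by edgeR, against 0.307% and 0.166% of all genes, with 0 and 1 at an unadjusted p below 0.05 and 0 and 0 by DESeq2. The median was −0.04 for the members, which became 0.02 with the GC trend removed, and −0.03 for all genes. PSMD6 was the member below that p, with 72.3, 56, 90.7 and 93.6 CPM with DMSO and 51, 46.3, 69.3 and 56.9 with CID661578, groups that overlap through replicate 2 of DMSO (log2 −0.48 ± 0.19, adjusted p 0.588, lower in 4 of 4 replicates). PSMG4 had the largest positive value, with 20.2, 24.2, 17.9 and 23.3 CPM with DMSO and 19.7, 35.8, 34.7 and 29.1 with CID661578 (log2 0.44 ± 0.22, adjusted p 0.712, higher in 3 of 4 replicates). A p that misses the threshold does not show that the values did not differ.

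The compounds were compared with each other through the difference of their TE changes, with the reservation that their doses differ (40 and 5 µM). CID661578 was above cercosporamide for 4 of 46 members and below it for 5 (8.7% and 10.9%), against 7.93% and 7.57% of all genes, and DESeq2 called 6 and 5. The median was 0.07 for the members, which became −0.14 in an analysis of partial variance, and −0.03 for all genes. CID661578 gave the higher TE for PSMG3 (log2 1.06 ± 0.24, adjusted p 0.0151, higher in 4 of 4 replicates), PSMA7 (log2 0.96 ± 0.23, adjusted p 0.0183, higher in 4 of 4 replicates), PSMG4 (log2 0.86 ± 0.32, adjusted p 0.11, higher in 4 of 4 replicates) and PSMD9, a chaperone of the 19S base (log2 0.66 ± 0.25, adjusted p 0.118, higher in 4 of 4 replicates). It gave the lower TE for PSMC6 (log2 −1.0 ± 0.25, adjusted p 0.0212, lower in 4 of 4 replicates), PSMC1 (log2 −0.98 ± 0.26, adjusted p 0.0274, lower in 4 of 4 replicates), PSMC2 (log2 −0.88 ± 0.26, adjusted p 0.0451, lower in 4 of 4 replicates), PSMD12 (log2 −0.75 ± 0.24, adjusted p 0.063, lower in 4 of 4 replicates) and PSMD1 (log2 −0.73 ± 0.26, adjusted p 0.0998, lower in 3 of 4 replicates). The plates show this directly for PSMA7, whose ratios were 0.907, 1.34, 0.776 and 1.04 with CID661578 and 0.389, 0.587, 0.531 and 0.571 with cercosporamide, without overlap. PSMC1 had ratios of 1.3, 1.57, 1.56 and 1.63 with CID661578, all below the cercosporamide ratios given above. Of 15 other settings 6 called PSMD9 and 9 called PSMD12, and neither was called with the GC trend removed (log2 0.46, adjusted p 0.207 and log2 −0.43, adjusted p 0.201). PSMG4 was called in 7 and PSMD1 in 9 of the 15. With the GC trend removed PSMG4 was not called either (log2 0.68, adjusted p 0.167).

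By class, the 6 ATPases had a median difference of −0.63 with 0 above zero, and the assembly factors one of 0.40. PSMD9 and PSMD1 were named after their values were seen. Without replicate 1 the counts were 2 higher and 2 lower, without replicate 2 they were 1 and 1, and without plate terms and replicate block 0 and 0. Without the plate of replicate 4 with cercosporamide, PSMC2 (log2 −0.67, adjusted p 0.159) and PSMG4 (log2 0.83, adjusted p 0.158) were not called. Of the 9 members with a TE rise under cercosporamide, 5 were thus also lower for CID661578 than for cercosporamide, and of the 4 with a fall, 3 were higher. All these comparisons use the same DMSO or cercosporamide libraries, so their values stand side by side and are not separate observations.

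The 14 members that edgeR called in no comparison with the main settings were PSMA1, PSMA6, PSMB1, PSMB4, PSMB6, PSMB9, PSMC4, PSMD7, PSMD8, PSMD11, PSME1, PSME2, PSME3 and PSMG1. The share of all tested genes called in no comparison was not counted, so this number only lists members and describes no trait of them. DESeq2 called 5 of the 14, PSMC4 and PSMD11 as enriched in polysomes with DMSO, PSMD8 and PSME3 with a higher TE for CID661578 than for cercosporamide, and PSME2 as higher in polysome-associated RNA with cercosporamide. Other edgeR settings also called some of the 14. With TMM in each fraction alone PSMB1, PSMB4, PSMC4, PSMD8, PSMD11 and PSME1 were enriched in polysomes with DMSO. PSMA6 was called in polysome-associated RNA with cercosporamide under filterByExpr, and PSMB9 for polysome over total without replicate 1.

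The members that gained and lost TE with cercosporamide had different medians of GC content and coding length, and their ranges overlapped. The difference was not tested. The 9 members called higher had a median transcript GC content of 42.2% (36.4 to 53.0) and a median coding length of 1167 bases, the 4 called lower 54.1% (51.9 to 59.4) and 556.5 bases, and the 33 not called 49.8% and 792 bases. Among all tested genes the same medians were 40.2% and 1749 bases for those called higher and 53.0% and 612 bases for those called lower. Across the 46 members, Spearman's rho between TE change and transcript GC content was −0.612, against −0.534 over 11584 genes, and with coding length 0.474, against 0.333 over 10098 genes. With DMSO, the 13 members enriched in polysomes had a median coding length of 1131 bases (615 to 5529) and the 6 depleted 697.5 (366 to 819). Whether coding length accounts for these depletions was not tested. For polysome over total with DMSO, rho was 0.501 with coding length and 0.1 with GC content across the members, against 0.606 and 0.231. These are relations across genes, which are not independent replicates, and the members follow the direction seen over all genes.

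**Figure D4:**
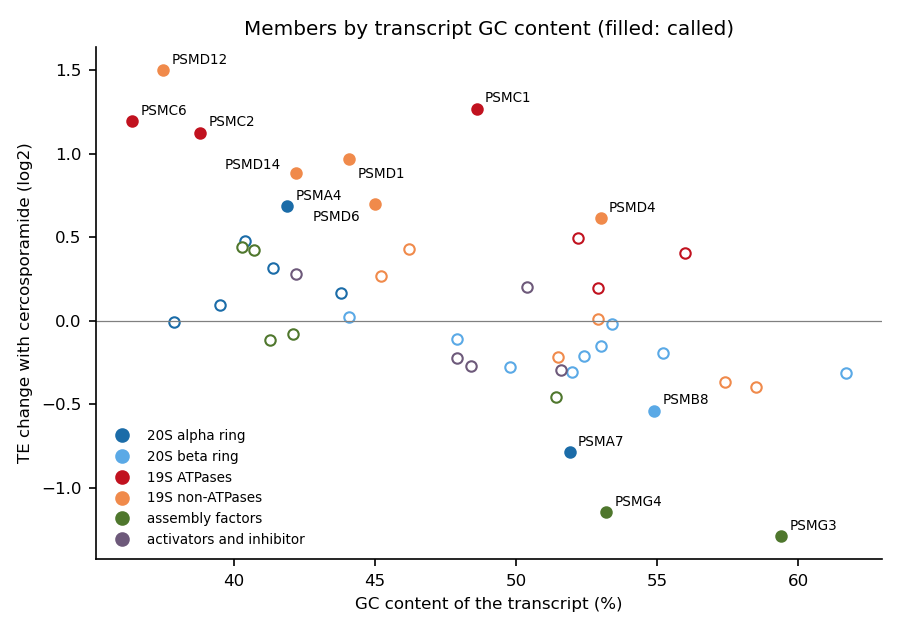
TE change with cercosporamide (log2, 4 replicates per treatment) of the 46 members against the GC content of their transcript (%), with called members filled. The 9 members called higher lie between 36.4% and 53.0% GC and the 4 called lower between 51.9% and 59.4%.

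The share of all reads that the 46 members take was another view of the module. It was 2.02% ± 0.253 in total RNA with DMSO and 2.81% ± 0.438 in polysome-associated RNA (SD, n = 4). With CID661578 it was 1.87% ± 0.291 and 3.04% ± 0.426, and with cercosporamide 1.98% ± 0.333 and 3.17% ± 0.49. Between treatments, the shares within a fraction differed by less than the spread between replicates. Leaving out PSMC4, the share with DMSO was 1.35% ± 0.108 in total and 1.82% ± 0.252 in polysome-associated RNA.

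Other genes of the pathway were taken from a list of 39, of which 38 were tested and DDI1 had no read. With cercosporamide 11 of 38 had a higher TE and 3 a lower one, against 15.8% and 12.6% of all genes tested. The deubiquitinases that sit on the 19S particle both rose, UCHL5 (log2 1.18 ± 0.27, adjusted p 0.00462, higher in 4 of 4 replicates) and USP14 (log2 1.16 ± 0.24, adjusted p 0.00228, higher in 4 of 4 replicates), as did the ubiquitin-activating enzyme UBA6 (log2 1.38 ± 0.29, adjusted p 0.00244, higher in 4 of 4 replicates) and, of the route that frees NRF1 from the endoplasmic reticulum, SEL1L (log2 1.32 ± 0.31, adjusted p 0.00601, higher in 4 of 4 replicates) and the protease DDI2 (log2 1.27 ± 0.55, adjusted p 0.116, higher in 3 of 4 replicates). The values of these genes were known when they were picked for description. For DDI2 the mean total RNA was low, at 4.29 CPM with DMSO and 2.0 with cercosporamide (log2 −1.07 ± 0.49, adjusted p 0.423). Its polysome-associated RNA was not called with cercosporamide (log2 0.12 ± 0.26, adjusted p 0.783). By sublist, 4 of 8 proteasome-bound enzymes and 4 of 10 genes of the NRF1 route had a higher TE.

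NFE2L1 itself held 23.9, 23.5, 30.9 and 21.3 CPM in total RNA with DMSO and 67.2, 81.8, 84.9 and 76.7 in polysome-associated RNA, without overlap (log2 1.65 ± 0.18, adjusted p 1.54e-07, higher in 4 of 4 replicates). Its TE change with cercosporamide was log2 −0.15 ± 0.26, adjusted p 0.748, lower in 2 of 4 replicates. The small subunit SEM1 (log2 −1.12 ± 0.17, adjusted p 1.07e-05, lower in 4 of 4 replicates) and POMP, the chaperone of core maturation (log2 −0.71 ± 0.19, adjusted p 0.00423, lower in 4 of 4 replicates), were depleted in polysomes with DMSO, like PSMG3 and PSMG4, but with cercosporamide POMP was not called (log2 −0.34 ± 0.27, adjusted p 0.42, lower in 3 of 4 replicates). The ubiquitin receptor ADRM1 (log2 0.35 ± 0.26, adjusted p 0.391, higher in 3 of 4 replicates) and the ATPase chaperone PAAF1 (log2 0.08 ± 0.29, adjusted p 0.888, higher in 3 of 4 replicates) were not called for TE either. For polysome over total with DMSO, 16 of the 38 pathway genes were enriched and 7 depleted, against 26.4% and 29.6% of all genes tested. With CID661578 0 of 38 had a TE call by edgeR or DESeq2, with 4 higher and 0 lower at an unadjusted p below 0.05. In polysome-associated RNA MAFF, OGT, UBA6 and UCHL5 were higher, against 10 higher with cercosporamide. The TE of NGLY1, ECPAS, USP14 and NFE2L2 was called lower with CID661578 than with cercosporamide. In total RNA 0 of the 38 were called by edgeR with either compound. DESeq2 called 1 higher and 0 lower there with CID661578, and 0 and 0 with cercosporamide. At an unadjusted p below 0.05 in edgeR the counts were 2 higher and 0 lower with CID661578 and 1 higher and 4 lower with cercosporamide.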

How the data were processed

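Reads were cleared of rRNA (BBDuk), mapped to hg38 (HISAT2) and assigned to RefSeq genes by featureCounts at its defaults, and the counts deposited by the authors are whole numbers without scaling. Members, lists and settings were chosen with earlier results of these data known. Genes with a zero in any library were removed, which left 12058. Counts were scaled with TMM and fitted in edgeR 4.0.16 (R 4.3.3, limma 3.58.1) by quasi-likelihood, with a term per plate, a replicate block for the polysome fraction and the TE change of each compound. The residual degrees of freedom were 6, the prior ones 18.25 and the common biological coefficient of variation 0.223. Each fraction was also fitted alone with replicate and treatment. P-values were Benjamini-Hochberg adjusted over all 12058 genes and called below 0.15, with a 1.2-fold minimum for TE and for polysome over total. A p-value measures the spread between replicates and no bias shared by a group. Replicates were paired by number, the batch of the paper. Deviations of 16 treated libraries from their group mean correlated across genes with those of the DMSO library of that number at r from −0.0246 to 0.609, above 0.1 in 13. CPM are edgeR's on scaled library sizes, and SEs are of log2 values. Lengths and GC content are of GENCODE transcripts for GRCh38, matched by symbol for 11584 of the tested genes (96.1%). Members named by rule were the 3 largest changes called per comparison and direction, or the largest where none was called, the catalytic and immunoproteasome subunits, the member of each class with the highest mean CPM, and the highest and lowest polysome to total ratio. Depth limits the precision of members with few reads. Alternatives were DESeq2 1.42.0, edgeR with DESeq2 size factors or with TMM in each fraction alone, filterByExpr, no filter, an adjusted p of 0.05, fits without replicate block or plate terms, DMSO with 1 compound, GC trend removal with a spline of 4 degrees of freedom, an analysis of partial variance written from the description of anota2seq, union exon length, classes by symbol and each replicate left out. The method was also tested on simulated data. Results for some genes of the pathway list are not reported here.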

Additional observations from a re-analysis of the deposited data

Results flagged for a closer look

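Among 162 groups of 4 libraries looked at (the CPM of each described member in each treatment and fraction, and the reads per library), 7 held a value far from the other 3 by Dixon's criterion for groups of 4. Chance gives about 5.0% of groups, 1 in 20. PSMB3 stood apart in polysome-associated RNA with DMSO, where replicate 1 had 2280 CPM, and in total RNA with cercosporamide, where replicate 3 had 2006. PSMD2 had 147 CPM in total RNA of replicate 2 with DMSO, below the other 3 replicates. PSMD4 had 1239 CPM in polysome-associated RNA of replicate 4 with CID661578. PSMD6 had 58.3 CPM in polysome-associated RNA of replicate 2 with DMSO. PSMG3 had 111 CPM in total RNA of replicate 1 with CID661578. The polysome library of replicate 4 with cercosporamide had 1592459 reads on genes. Without the plate of that library, PSMD4 was the member described above whose TE call with cercosporamide was lost.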

How the results depend on the processing

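Of 374 comparisons of 26 named calls with another setting, 327 had the same direction and call, 47 lost the call and 0 reversed, and 14 calls held in every setting. These 26 are at most the 3 largest changes called per comparison and direction, so the tally leaves out the smaller calls. Among those, PSMF1 and PSMB2 (polysome over total with DMSO) held in 1 and 3 of 14 settings. PSMD3 (polysome-associated RNA with cercosporamide) held in 3 of 13, while PSMA4 there held in all 13 and PSMD13 (polysome over total with DMSO) in all 14. For the named calls, the settings with the most losses were the one without replicate 2 (8) and the one without plate terms and replicate block (7). For the TE change with cercosporamide, the fit without plate terms and replicate block called 2 members higher, and the analysis of partial variance called 2 lower. For CID661578 minus cercosporamide, the counts of higher and lower were 2 and 3 at an adjusted p of 0.05, 0 and 0 without plate terms and replicate block, and 2 and 3 with no filter, while the analysis of partial variance called 2 higher. Classes by symbol alone put 1 non-ATPase, PSMD9, among those higher there. For polysome over total with DMSO, 8 were enriched without plate terms and replicate block and 22 with TMM within each fraction. Total RNA with cercosporamide had 5 higher with the GC trend removed and 3 by DESeq2. Polysome-associated RNA with CID661578 had 0 higher at an adjusted p of 0.05, 0 without the replicate block and 0 with the GC trend removed. With cercosporamide it had 7 higher without the replicate block. The members lower there were 2 at an adjusted p of 0.05, 2 without the replicate block, 2 with filterByExpr, 2 with no filter and 2 with DMSO and 1 compound only. Leaving out each replicate in turn, or the plate of replicate 4 with cercosporamide alone, gave 0 to 1 higher for TE with CID661578, 2 to 5 lower for TE with cercosporamide (5 for the single plate), 1 to 3 higher and 1 to 5 lower for the difference of the compounds, 0 to 3 higher in polysome-associated RNA with CID661578 (0 for each whole replicate, 3 for the single plate), and 9 to 17 higher and 2 to 4 lower with cercosporamide. The cause was not tested for any of these moves. Union exon lengths gave class medians of 85.4 (alpha), 226 (beta), 25.4 (ATPases), 38 (non-ATPases), 15.3 (assembly factors) and 48 CPM per kb (activators and inhibitors), since they are longer than single transcripts.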

Other observations

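The COP9 signalosome, a complex that removes NEDD8 from cullin ligases, is related to the lid of the 19S particle, and its genes were picked with their values known. Of 10 tested subunit genes, 2 had a higher TE with cercosporamide, COPS2 (log2 0.98 ± 0.29, adjusted p 0.0222, higher in 4 of 4 replicates) and COPS4 (log2 0.72 ± 0.26, adjusted p 0.0593, higher in 4 of 4 replicates). Lower were COPS9 (log2 −1.07 ± 0.26, adjusted p 0.00617, lower in 4 of 4 replicates), COPS7A (log2 −0.93 ± 0.27, adjusted p 0.0218, lower in 4 of 4 replicates) and COPS7B (log2 −0.97 ± 0.35, adjusted p 0.0609, lower in 4 of 4 replicates). Among all genes tested the shares were 15.8% higher and 12.6% lower. The median TE change of the 10 was 0.05. For the TE change with CID661578 edgeR and DESeq2 called 0 of the 10 in either direction, and 0 had an unadjusted p below 0.05. In polysome-associated RNA with CID661578, edgeR called COPS2 higher (log2 0.70 ± 0.17, adjusted p 0.0278, higher in 4 of 4 replicates), and DESeq2 called 1 of the 10 higher, beside 6.34% of all genes by edgeR. For polysome over total with DMSO, COPS6 was enriched and COPS2, COPS8, COPS9 and COPS7A were depleted, beside 26.4% and 29.6% of all genes.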
